A study of Mus musculus with 16 samples.

Results

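The 10 cytochrome P450 genes Cyp2c55, Cyp2c65, Cyp2c66, Cyp3a11, Cyp3a13, Cyp3a25, Cyp2b10, Cyp1a1, Cyp2d26 and Cyp4f14 of the mouse intestine were described in ileum mucosa of mice that lack Schlafen 3 and of wild-type mice. They were taken by symbol from a table of 46078 genes, in which 117 gene symbols are Cyp followed by a digit, and the other 107 of these served as a comparison. All 10 genes reached at least 10 counts in some library and passed the filter on low counts when all mice were fitted. The libraries came from 4 mice in each of 4 groups, female and male Slfn3KO and female and male WT, of C57Bl/6 background and 8 weeks of age by the labels. Slfn3KO mice carry a deletion of Slfn3 in every tissue, the WT mice carry none, and no other treatment is named in the labels. Each library holds between 20823279 and 30813117 counts.

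Cytochrome P450 enzymes are haem proteins of the endoplasmic reticulum that add oxygen to drugs, dietary compounds, steroids and fatty acids, with electrons passed on from P450 reductase or cytochrome b5. In the gut they sit mainly in the absorptive enterocytes of the villus, and many of them are most abundant in the proximal small intestine. Several are switched on by nuclear receptors that sense foreign compounds, PXR (Nr1i2) and CAR (Nr1i3), and Cyp1a1 is the classical target of the aryl hydrocarbon receptor (Ahr).

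Cyp2c55, Cyp2c65 and Cyp2c66 are neighbours on the plus strand of chromosome 19, and their promoters are shown because these genes parted in the results below. In mm10 they start at 39007019, 39061015 and 39113898. Promoters of Cyp2d26, which followed the glucose transporter gene Slc2a2 across libraries, and of Cyp1a1, which did not pass that test, are shown beside them. Each line gives the 250 bases before the RefSeq start in GRCm38.p6, 5′ to 3′ on the strand of the gene. Capitals mark CAAAG, letters found in many binding sites of the enterocyte factor HNF4, or its reverse complement. The windows are chr19:39006769-39007018 (plus strand), chr19:39060756-39061005 (plus), chr19:39113648-39113897 (plus), chr15:82794246-82794495 (minus) and chr9:57697363-57697612 (plus).
Cyp2c55: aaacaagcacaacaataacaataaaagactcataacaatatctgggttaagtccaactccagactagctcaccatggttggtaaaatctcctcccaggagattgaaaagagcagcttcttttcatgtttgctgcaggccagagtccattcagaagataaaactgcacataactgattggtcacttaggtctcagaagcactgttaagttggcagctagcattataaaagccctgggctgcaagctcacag
Cyp2c65: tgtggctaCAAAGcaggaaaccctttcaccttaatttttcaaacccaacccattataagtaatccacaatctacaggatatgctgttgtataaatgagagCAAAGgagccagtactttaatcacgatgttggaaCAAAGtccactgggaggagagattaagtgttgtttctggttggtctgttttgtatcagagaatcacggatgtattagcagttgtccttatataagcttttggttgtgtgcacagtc
Cyp2c66: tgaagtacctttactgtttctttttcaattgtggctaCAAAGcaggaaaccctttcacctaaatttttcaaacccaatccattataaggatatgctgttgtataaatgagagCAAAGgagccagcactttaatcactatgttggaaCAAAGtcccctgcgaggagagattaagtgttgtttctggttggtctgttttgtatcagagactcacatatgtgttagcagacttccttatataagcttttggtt
Cyp2d26: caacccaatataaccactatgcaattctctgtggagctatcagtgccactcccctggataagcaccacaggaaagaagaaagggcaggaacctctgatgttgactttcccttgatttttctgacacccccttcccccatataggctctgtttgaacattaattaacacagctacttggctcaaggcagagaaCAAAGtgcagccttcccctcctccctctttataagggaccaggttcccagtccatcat
Cyp1a1: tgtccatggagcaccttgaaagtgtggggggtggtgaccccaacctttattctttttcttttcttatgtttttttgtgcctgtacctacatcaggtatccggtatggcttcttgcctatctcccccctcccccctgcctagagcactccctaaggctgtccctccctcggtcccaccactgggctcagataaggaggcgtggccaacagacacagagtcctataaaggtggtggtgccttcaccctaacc

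CAAAG was present in 8 of the 10 promoters, against 48.6% of all windows of this length, and the promoters without it were those of Cyp2c55 and Cyp1a1. Cyp3a25 had 2 listed windows and Cyp4f14 had 4, of which the first was used, while the shares cover all 32851 windows. GATAA, the letters of GATA factor sites, was in 4 of 10 (22.6% of all windows), namely Cyp2c55, Cyp3a13, Cyp1a1 and Cyp2d26. GCGTG, the core of the aryl hydrocarbon receptor element, was in 3 (28.2%), Cyp2b10, Cyp1a1 and Cyp4f14. AGGTCA and AGTTCA, letters of nuclear receptor sites, were in 2 (14%) and 1 (11.8%), and Cyp3a11 held both. All of these were searched on both strands. TATAAA, searched on the strand of the gene only, was in 5 of 10 against 7.59% of all windows. These matches are descriptions of the letters in these windows and were not tested.

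The promoters of Cyp2c65 and Cyp2c66 were 94.1% identical over 221 aligned bases and their transcripts were 96.3% identical, whereas the Cyp2c55 promoter shared 60.9% with Cyp2c65 and 57.1% with Cyp2c66. Of the 50-base stretches of Cyp2c65, 20.2% also occur in Cyp2c66, as do 19.5% of those of Cyp2c66 in Cyp2c65. Of Cyp3a25, 26.8% was shared, nearly all of it with Cyp3a59, and Cyp2d26 shared 9.49%, Cyp2b10 8.70% and Cyp3a11 6.73% with other genes. Cyp2c55 (0.514%) and Cyp3a13 (0%) had next to no shared sequence. The counting command names no option for reads that map to several genes, so levels of Cyp2c65, Cyp2c66 and Cyp3a25 are uncertain. Cyp2c66 averaged 1.35 CPM beside 77.6 CPM for Cyp2c65. Reads of the shared stretches may have been dropped from both genes or placed in the wrong one, and neither was tested. Any reads of Cyp2c65 placed in Cyp2c66 would weigh heavily at these levels.

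Slfn3 itself checked the genotype labels poorly, since it was near the floor in this tissue. It had 0 to 2 counts in the Slfn3KO libraries and 0 to 19 counts in the WT libraries. In 12 of 16 libraries the sex transcripts followed the labelled sex, and in the 4 WT libraries numbered 3 and 4, female and male, they went against it. For the comparisons of genotypes, values of the main enzymes without those 4 libraries therefore stand beside those with them. The tissue carried epithelial markers throughout, with Epcam between 2186 and 4710 CPM (counts divided by the TMM-scaled library size), and the ileal bile acid carrier Fabp6 between 1798 and 15715 CPM. Car1, a defining gene of colon, was at 0 in every WT and male Slfn3KO library and at most 0.473 CPM in female Slfn3KO mice. None of 7 acinar pancreas genes passed the filter, and 7 hepatocyte genes summed to between 2.81 and 18.3 CPM.

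Expression of the 10 genes spanned more than 3 orders of magnitude per kilobase of exon. Cyp4f14, a hydroxylase of leukotrienes and fatty acids, was highest at a mean of 567 CPM per kilobase, and Cyp3a13, a steroid and drug hydroxylase, followed at 217. Cyp2d26 lay at 80.7, Cyp3a25 at 47.8, Cyp2c65 at 40.2, Cyp2c55 at 36.3 and Cyp3a11 at 23.0 CPM per kilobase. Cyp2b10 (5.42), Cyp2c66 (0.694) and Cyp1a1 (0.258) were low on the same scale. Cyp4f14 was above Cyp3a13 and Cyp3a11 above Cyp2b10 in 16 of 16 libraries. Neighbours in the middle of the order were not separated, with Cyp3a25 above Cyp2c65 in 11 and Cyp2c65 above Cyp2c55 in 10 of 16 libraries. Among other P450 genes the highest were Cyp4f40 (71.3), Cyp4v3 (69.3) and Cyp4f16 (64.3 CPM per kilobase), and 31 of the 107 passed the filter.

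Levels in single libraries showed which genes varied most. Cyp4f14 ranged 3.75-fold over the 16 libraries, from 639 to 2398 CPM, and Cyp3a13 ranged 3.80-fold, from 275 to 1045 CPM. Cyp2c65 ranged 5.55-fold, Cyp3a25 7.92-fold and Cyp2d26 10.5-fold. Cyp2c55 ranged 30.7-fold, from 7.58 to 233 CPM, and Cyp3a11 67.5-fold, from 7.95 to 537 CPM. Cyp2b10 went from 0 to 54.5 CPM, where a floor of 3 counts in a library lies between 0.0974 and 0.144 CPM. These floors, like all counting limits here, cover counting error only.

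Cyp4f14 was at 762, 639, 1212 and 1035 CPM in female Slfn3KO and 2398, 1506, 867 and 1352 CPM in female WT mice, and at 1326, 1815, 1245 and 1873 CPM in male Slfn3KO and 1517, 1751, 932 and 1607 CPM in male WT mice. Cyp3a13 was at 312, 275, 648 and 517 CPM in female Slfn3KO and 867, 522, 343 and 512 CPM in female WT mice, and at 602, 974, 689 and 1045 CPM and 777, 910, 433 and 846 CPM in the same genotypes of males. For both genes the lowest libraries were female Slfn3KO 1 and 2, and the genotypes overlapped in either sex. Cyp3a11 in WT mice read 78.7, 60.3, 7.95 and 18.8 CPM in females and 84.0, 46.6, 33.9 and 537 CPM in males, so that male WT 4 was the highest of all 16 libraries. Cyp1a1 was at 0 in 3 of 4 female Slfn3KO libraries and in female WT 1, and its highest levels were 4.42 CPM in female WT 4, 1.82 CPM in female WT 2 and 1.58 CPM in male WT 4. Its 4 male Slfn3KO libraries lay between 0.212 and 0.714 CPM.

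**Figure D1:**
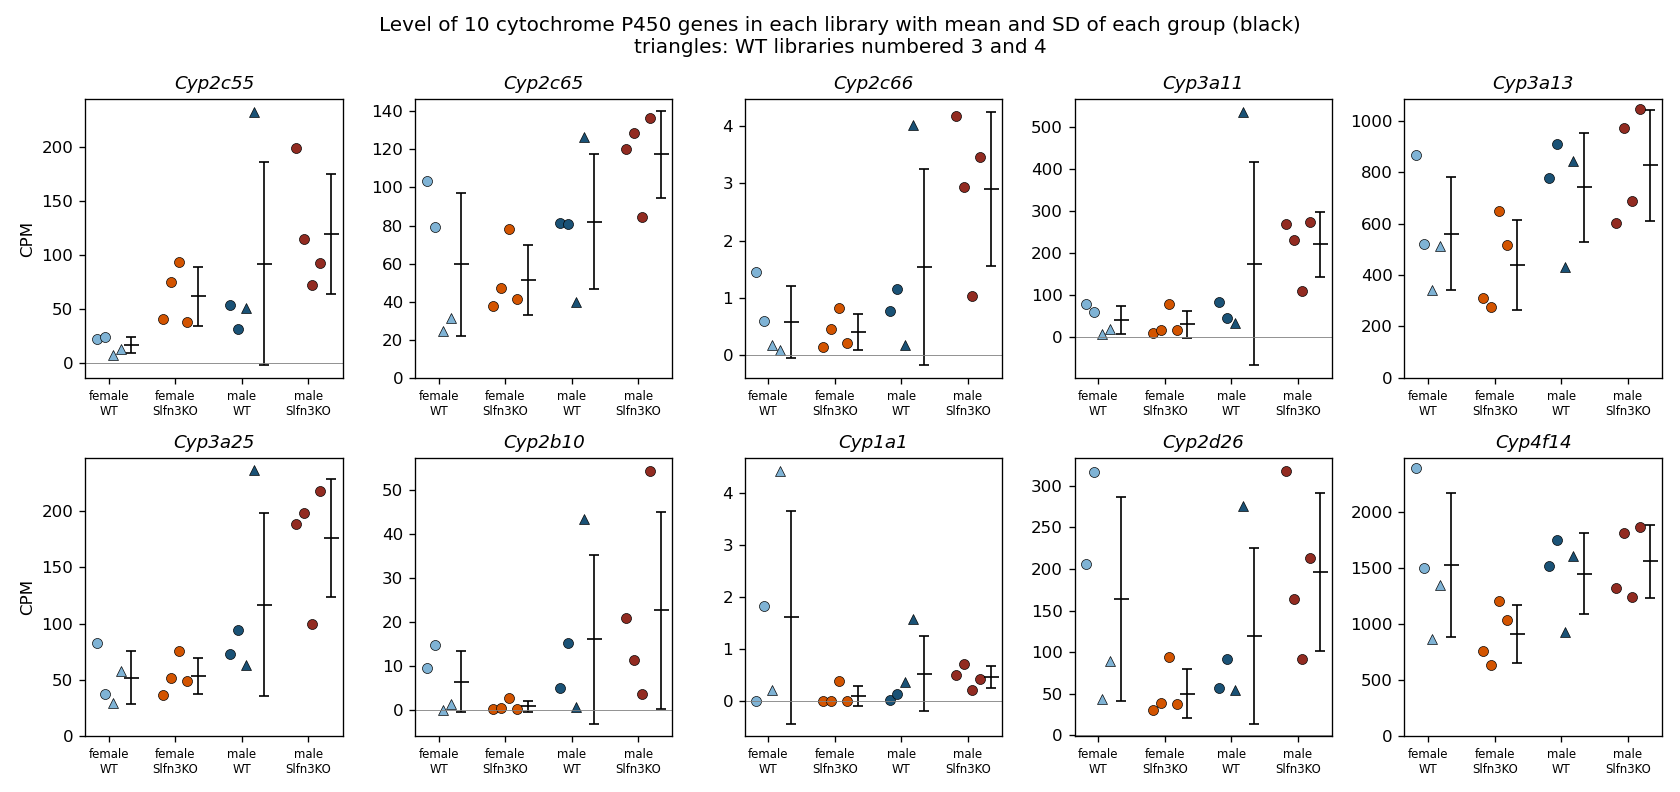
CPM (vertical axis, linear) of each of the 10 genes in 16 libraries, grouped by labelled sex and genotype, with the mean and SD of each group of 4 in black. Cyp2c55 is the gene whose 4 female Slfn3KO libraries (37.5 to 93.3 CPM) all lie above the 4 female WT libraries (7.58 to 23.7 CPM), and male WT library 4 is far above its group for Cyp2c55 and Cyp3a11.

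The first comparison asked whether loss of Slfn3 changed these enzymes when both sexes were pooled, with labelled sex as a covariate. None of the 10 genes passed an adjusted p of 0.05 by the quasi-likelihood test of edgeR, with p-values adjusted over 14822 genes. No gene at all did (background 0%, smallest adjusted p 0.327), and DESeq2 also called 0 of the 10 against 0.432% of all genes. At an unadjusted p under 0.05, 1 of 10 was called against 11.9% of all genes, a share near the background. The median log2 difference of the 10 genes was -0.07, beside 0.00 (-0.00366) for all genes, with 4 genes higher and 6 lower in Slfn3KO mice.

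Cyp2c55, an epoxygenase and hydroxylase of arachidonic and linoleic acid, was the gene past the unadjusted threshold. Slfn3KO mice averaged 90.6 ± 51.0 CPM and WT mice 54.3 ± 73.9 CPM (both SD, n = 8), and the groups overlapped widely. The fitted log2 difference was 1.13 (SE 0.45) with an adjusted p of 0.341 by edgeR and 0.145 by DESeq2. Without male WT library 4 the difference was 1.66, and without the 4 WT libraries numbered 3 and 4 it was 1.46, with adjusted p-values of 0.384 and 0.761 by edgeR. For Cyp1a1 the fitted value was -1.86 (SE 1.08, adjusted p = 0.517), at levels of 0 to 0.714 CPM in Slfn3KO and 0 to 4.42 CPM in WT mice, and -0.95 (adjusted p = 0.834) without the 4 WT libraries. The remaining 8 genes lay between -1.10 (Cyp2b10) and 0.32 (Cyp3a25), and without the 4 WT libraries between -1.90 and 0.41 for the same genes.

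In mice labelled female the 2 genotypes did not overlap in Cyp2c55. It read 40.7, 75.4, 93.3 and 37.5 CPM in the Slfn3KO libraries and 22.1, 23.7, 7.58 and 12.5 CPM in the WT libraries, so that every Slfn3KO library was above every WT library. This rests on the labelled sex: male WT libraries 3 and 4, whose sex transcripts went against their label, read 51.1 and 233 CPM, within and above the female Slfn3KO range. Among all 14064 genes tested in females, 4.86% were likewise higher without overlap. The log2 difference was 1.90 (SE 0.43), a 3.73-fold higher level, with an unadjusted p of 0.00176 and an adjusted p of 0.236 by edgeR's quasi-likelihood test. DESeq2 gave an adjusted p of 0.00227 for the same difference and called 1 of the 8 of these genes it could judge, against 4.70% of all genes. Without WT libraries 3 and 4 the log2 difference was 1.42, and over all edgeR alternatives it lay between 1.42 and 2.15 with adjusted p-values from 0.113 to 0.554.

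Other genes of the family did not share that pattern in females. Cyp2c65, which like Cyp2c55 oxidises arachidonic acid, read 37.9, 47.4, 78.2 and 41.3 CPM in Slfn3KO and 103, 79.0, 24.6 and 31.5 CPM in WT mice, with a log2 difference of -0.22 (SE 0.46). Cyp2d26, an oxidase of the Cyp2d drug-metabolising group, had 30.3, 38.9, 93.9 and 38.3 CPM in Slfn3KO and 206, 316, 44.2 and 89.6 CPM in WT mice. Its log2 difference was -1.71 (SE 0.61, unadjusted p = 0.0222, adjusted p = 0.263 by edgeR), and -2.38 (adjusted p = 0.109) without WT libraries 3 and 4. Cyp2b10, the classical CAR target, was at 0.0860, 0.286, 2.64 and 0.0802 CPM in Slfn3KO and at 9.44, 14.7, 0 and 1.36 CPM in WT females, with a log2 difference of -3.02 (SE 1.501, adjusted p = 0.316), and -3.94 (adjusted p = 0.140) without those libraries. Of 9 genes tested in females (Cyp1a1 failed the filter), 0 passed the adjusted threshold (background 0%) and 2 the unadjusted one, against 17.1% of all genes, 1 higher and 1 lower. Without WT libraries 3 and 4, 1 was higher and 4 lower at the unadjusted threshold, against 12.1% and 11.8% of all genes.

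Slc2a2, the basolateral glucose transporter that falls from jejunum to ileum, moved with genotype in the same female libraries, at 0.516, 0.572, 4.31 and 1.04 CPM in Slfn3KO and 150.4, 62.6, 1.12 and 2.45 CPM in WT mice. Its log2 difference was -5.05 (SE 1.55, adjusted p = 0.237 by edgeR and 0.0150 by DESeq2), and -6.03 (adjusted p = 0.0909) without WT libraries 3 and 4. Its part in the female differences of the 10 genes was not tested within females.

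Markers of other cell types moved with genotype too, read against 8.57% of all genes higher and 8.56% lower in females at an unadjusted p under 0.05. All 9 Paneth cell genes had unadjusted p-values under 0.05 and were higher in female Slfn3KO mice, where they summed to between 7140 and 15100 CPM, against 1290 to 6600 CPM in female WT. Of 9 crypt stem and dividing cell genes, 7 were higher at the unadjusted threshold. All 11 B cell and follicle genes were lower, with sums of 8.46 to 59.8 CPM against 20.8 to 653 CPM. Without WT libraries 3 and 4, 9 of 9 Paneth cell and 5 of 9 crypt genes were higher (12.1% of all genes), and 0 of 11 B cell genes passed. None of these lists holds a gene that passed the adjusted threshold, and the part of these cells in the level of Cyp2c55 was not tested. In bulk mucosa, fewer cells of a type and less RNA per cell cannot be told apart.

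In male mice no gene of the family passed either threshold. None of 10 was called at the adjusted threshold (background 0%) and none at an unadjusted p under 0.05, against 3.84% of all 14124 genes by edgeR, while DESeq2 called 0 of 9 against 0.113%. Cyp2c55 read 199, 115, 72.5 and 92.2 CPM in Slfn3KO and 53.5, 31.2, 51.1 and 233 CPM in WT males, and the groups overlapped through WT library 4. Its log2 difference was 0.40 (SE 0.62, adjusted p = 0.939 by edgeR), and 1.51 (adjusted p = 0.644) without WT libraries 3 and 4. By qPCR, another measure, the authors report higher Cyp2c55 mRNA in Slfn3KO mice of both sexes. In their sequencing they list Cyp2c55 in a gene cluster raised in Slfn3KO females. Fitted differences were positive for 9 of 10 genes, with a median of 0.46 beside 0.00 (-0.00165) for all genes. The largest was 0.95 (SE 0.80) for Cyp2c66, and adjusted p-values ran from 0.925 to 0.987. Without WT libraries 3 and 4, 7 of 10 genes were higher in Slfn3KO males at an unadjusted p under 0.05, against 3.38% of all genes, and 0 passed after adjustment. Cyp2c66 was then at 1.59, Cyp3a11 at 1.77, Cyp3a25 at 1.08 and Cyp1a1 at 2.37, with adjusted p-values of 0.652 for Cyp2c66 and 0.644 for the others.

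Whether the effect of genotype differed between the labelled sexes was tested as an interaction, female minus male. None of the 10 genes passed (background 0% of 14822 genes), 1 had an unadjusted p under 0.05 against 11.1% of all genes, and DESeq2 called 0 of 8 against 0.287%. The difference was positive for Cyp2c55 alone, at 1.53 (SE 0.81, adjusted p = 0.469 by edgeR), and negative for the other 9, down to -3.79 for Cyp1a1. Without the 4 WT libraries whose sex transcripts went against their labels, the value for Cyp2c55 was -0.08 (adjusted p = 0.952). In that fit 1 of 10 genes was called, Cyp2d26 at -3.78 (adjusted p = 0.0442), against 2.46% of all genes, whereas with all libraries Cyp2d26 was at -2.42 (SE 0.91, adjusted p = 0.441). At the unadjusted threshold 8 of 10 were then lower, against 12.5% of all genes. The interaction of Slc2a2 was -5.10 (adjusted p = 0.441), and -5.69 (adjusted p = 0.0757) without those libraries, and its part was not tested.

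**Figure D2:**
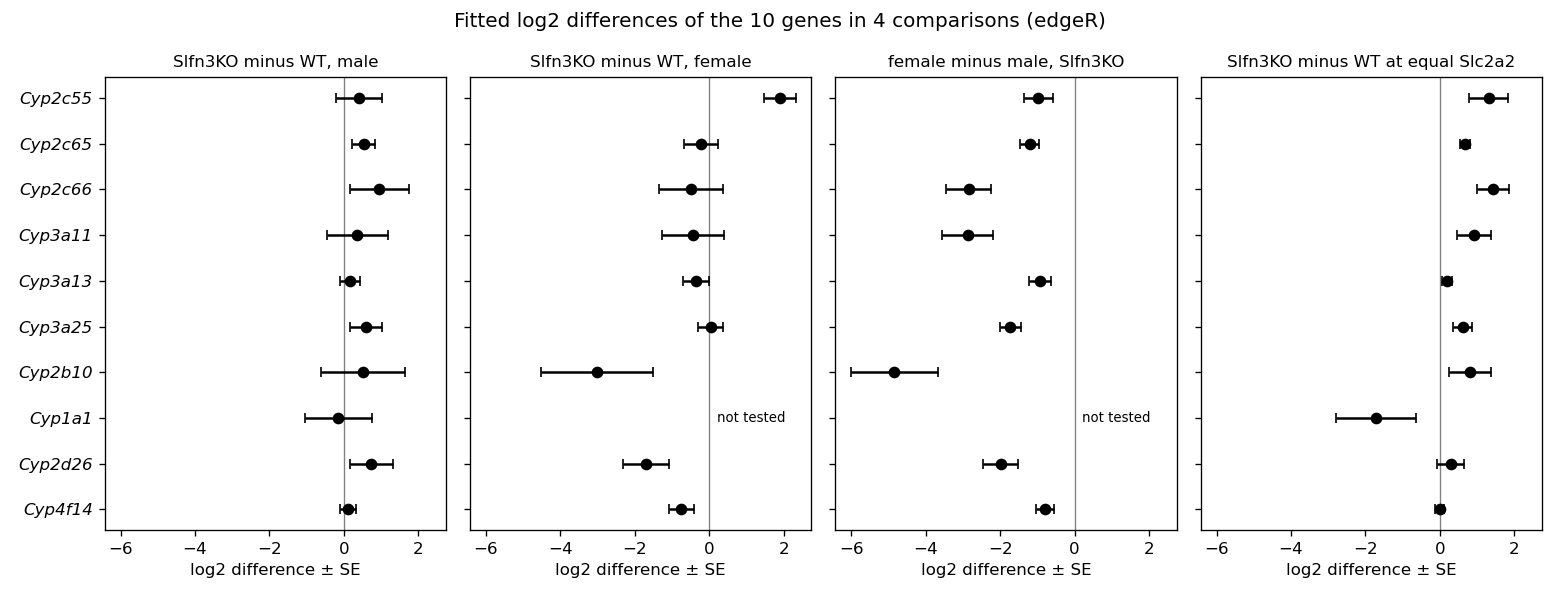
Fitted log2 differences (horizontal axis, points) with their SE (bars) for each gene in males, in females, between the sexes of Slfn3KO mice and between genotypes at equal Slc2a2. Cyp2c55 stands at 1.90 in females while Cyp2b10 and Cyp2d26 stand at -3.02 and -1.71, and all 9 genes tested between Slfn3KO females and males lie below 0.

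Between the sexes of Slfn3KO mice, the fitted level was lower in females for each of the 9 genes tested. Log2 differences, female minus male, ran from -0.79 (Cyp4f14) to -4.84 (Cyp2b10), with a median of -1.73 beside 0.01 for all 14159 genes. At the adjusted threshold edgeR called 0 of 9 (0.0494% of all genes, 7 genes), and the adjusted p-values of the 9 genes lay between 0.0898 and 0.177. At the unadjusted threshold all 9 were called lower, against 11.3% of all genes. DESeq2 called 7 of the 8 it could judge lower, against 6.55% of all genes.

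Cyp3a11, the main inducible Cyp3a hydroxylase of mouse liver and gut, read 9.50, 16.2, 78.5 and 17.6 CPM in female and 269, 232, 109 and 274 CPM in male Slfn3KO mice. Every female was below every male, and the log2 difference was -2.87 (SE 0.68, unadjusted p = 0.00268, adjusted p = 0.0898 by edgeR). Cyp3a25, its near relative, read 36.9, 51.7, 75.6 and 49.2 CPM in females and 188, 198, 99.5 and 218 CPM in males, a log2 difference of -1.73 (SE 0.28). For Cyp2c66 the values were 0.129, 0.450, 0.815 and 0.2005 CPM against 4.18, 2.93, 1.02 and 3.47 CPM, a log2 difference of -2.85 (SE 0.60). In 6 of these 9 genes, Cyp2c65, Cyp2c66, Cyp3a11, Cyp3a25, Cyp2b10 and Cyp4f14, the sexes did not overlap, against 4.86% of all genes lower without overlap.

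Single libraries decided the call of this comparison. Without female Slfn3KO library 3, edgeR called 6 of 9 genes, against 5.44% of all genes, and without male Slfn3KO library 3 it called 5, against 3.20%. Female library 3 was the highest of its group for Cyp2c55, Cyp2c65, Cyp2c66, Cyp3a11, Cyp3a13, Cyp3a25, Cyp2b10, Cyp1a1, Cyp2d26 and Cyp4f14 alike. Slc2a2 moved with sex in the same mice, at 0.516, 0.572, 4.31 and 1.04 CPM in females and 23.3, 52.1, 10.2 and 194 CPM in males. Its log2 difference was -5.42 (SE 1.13, adjusted p = 0.0898), and its part in the lower P450 levels of these females was not tested. At an unadjusted p under 0.05, 5 of 10 enterocyte genes and 5 of 9 proximal small intestine genes were lower in female than in male Slfn3KO mice, against 11.3% of all genes, and 2 of the proximal genes were higher. Of 9 Paneth cell genes 8 and of 9 crypt genes 4 were higher, against 13.7% of all genes, and the part of these cells was not tested either.

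Slc2a2 was used as a marker of position along the bowel, because the length of bowel each mucosa came from is not recorded in the labels. It ranged from 0.516 to 194 CPM, and 7 libraries were under 5 CPM: the 4 of female Slfn3KO mice, female WT 3 and 4 and male WT 3. The slope of each gene on log2 Slc2a2 was fitted with labelled sex and genotype in the model, and is in log2 units per doubling of Slc2a2.

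Of the 10 genes, 8 had a positive slope that passed the adjusted threshold in edgeR's quasi-likelihood test, against 30.7% of all 14821 genes in either direction and 15.8% upward. The median slope of the 10 genes was 0.21, beside -0.01 for all genes. Cyp2b10 was steepest at 0.92 (SE 0.13, adjusted p = 0.000213). Cyp2c66 followed at 0.49 (SE 0.09), Cyp3a11 at 0.46 (SE 0.10), Cyp2d26 at 0.38 (SE 0.08) and Cyp2c65 at 0.25 (SE 0.03, adjusted p = 2.93e-05). Cyp4f14, Cyp3a25 and Cyp3a13 each had a slope of 0.17. Cyp2c55 at 0.09 (SE 0.11, adjusted p = 0.570) and Cyp1a1 at 0.14 (SE 0.25, adjusted p = 0.701) did not pass.

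**Figure D3:**
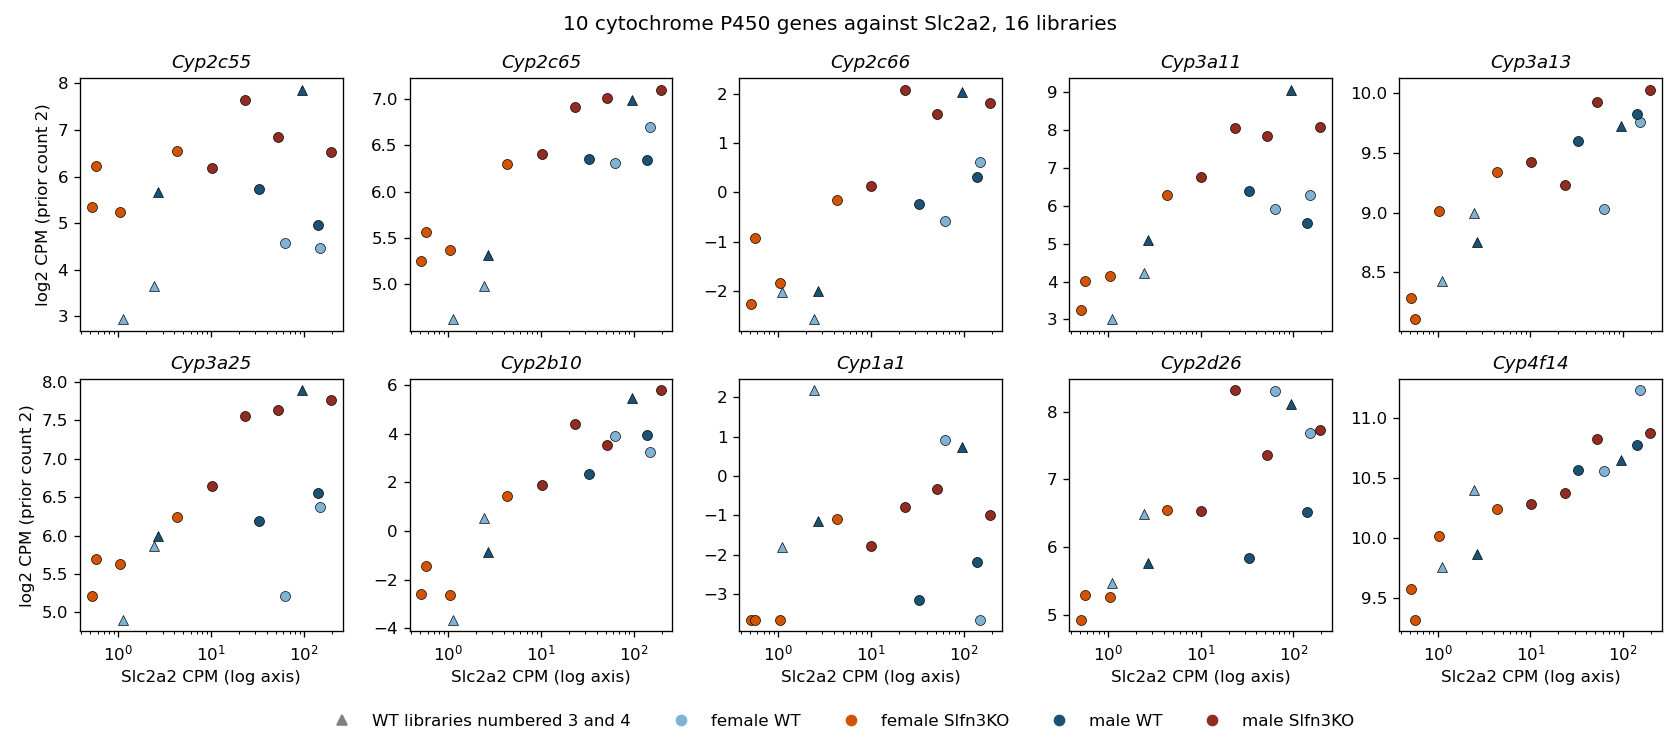
Log2 CPM of each gene (vertical axis) against Slc2a2 CPM (horizontal axis, log scale) in 16 libraries coloured by group. Cyp2b10 rises from near the floor to 54.5 CPM along the axis, while the female Slfn3KO libraries of Cyp2c55 sit as high as many libraries with far more Slc2a2.

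DESeq2 called the same number, 8 of 10 against 35.1% of all genes. With Gata4, a factor of the proximal small intestine, in place of Slc2a2, 8 of 10 were called against 26.6%. With the ileal gene Fabp6 in its place, 0 of 10 were called against 0.810% and 6 slopes were negative. Leaving out the 4 WT libraries numbered 3 and 4 kept 8 of 10, against 26.5%. In fits within 1 genotype, which were added after the data were seen, 5 of 10 were called in WT mice (10.5% of all genes) and 0 of 9 in Slfn3KO mice (0.184%). Slopes were positive for 9 of 9 genes within Slfn3KO and 9 of 10 within WT mice, the exception being Cyp1a1 at -0.09. Cyp2b10 had 0.91 in each genotype.

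The genotypes were then compared at equal Slc2a2 in the same fit. The authors report lower Slc2a2 (Glut2) mRNA in Slfn3KO females by qPCR, so this covariate is itself reported to move with genotype. For the RNA sequencing they report no significant genotype difference in intestinal differentiation markers, Slc2a2 among them. Female Slfn3KO libraries reached at most 4.31 CPM of Slc2a2. In WT mice only female 3 and 4 and male 3 lay that low, at 1.12, 2.45 and 2.68 CPM. Without them the lowest WT library was at 32.9 CPM, and the fit then relied on the slope beyond the WT range. None of the 10 genes passed the adjusted threshold (0.0135% of all genes, 2 genes), while 4 had an unadjusted p under 0.05, all of them higher in Slfn3KO mice, against 5.80% of all genes higher. Cyp2c65 was at 0.68 (SE 0.13, unadjusted p = 9.31e-05, adjusted p = 0.122), Cyp2c66 at 1.43 (SE 0.44, adjusted p = 0.152), Cyp2c55 at 1.32 (SE 0.52, adjusted p = 0.251) and Cyp3a25 at 0.61 (SE 0.24, adjusted p = 0.256). DESeq2 called Cyp2c65 (adjusted p = 0.000606) and Cyp2c66 (adjusted p = 0.0394), 2 of 10 against 3.41% of all genes. Without male Slfn3KO library 4, edgeR also called these 2 genes (5.16% of all genes), and without male WT library 1 it called Cyp2c65 (2.44%). Without the WT libraries numbered 3 and 4, Cyp2c65 was at 0.62, Cyp2c66 at 1.79 and Cyp2c55 at 1.54. Each had an adjusted p of 0.630 by edgeR, and 0 of 10 genes were called (0%). All 10 were then higher in Slfn3KO mice, 5 of them at an unadjusted p under 0.05, against 3.23% of all genes higher. With all libraries, Cyp4f14 had the smallest difference at equal Slc2a2, -0.01 (SE 0.11, adjusted p = 0.987 by edgeR).

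Cyp2c55 was also set against its neighbour within each library, a ratio chosen after the values were seen and given with no test. In all 4 WT libraries numbered 3 and 4, female and male, the sex transcripts went against the label by which they are grouped here. Cyp2c55 over Cyp2c65 was 1.07, 1.59, 1.19 and 0.909 in female Slfn3KO and 0.215, 0.300, 0.308 and 0.396 in female WT mice. In males it was 1.66, 0.889, 0.856 and 0.675 in Slfn3KO and 0.658, 0.386, 1.28 and 1.84 in WT mice. All 8 Slfn3KO libraries were above all 4 female WT libraries. Male WT libraries 1 and 2 also lay below all 8 Slfn3KO libraries, and male WT libraries 3 and 4 lay among or above them. The WT libraries numbered 1 and 2, of either sex, lay between 0.215 and 0.658.

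**Figure D4:**
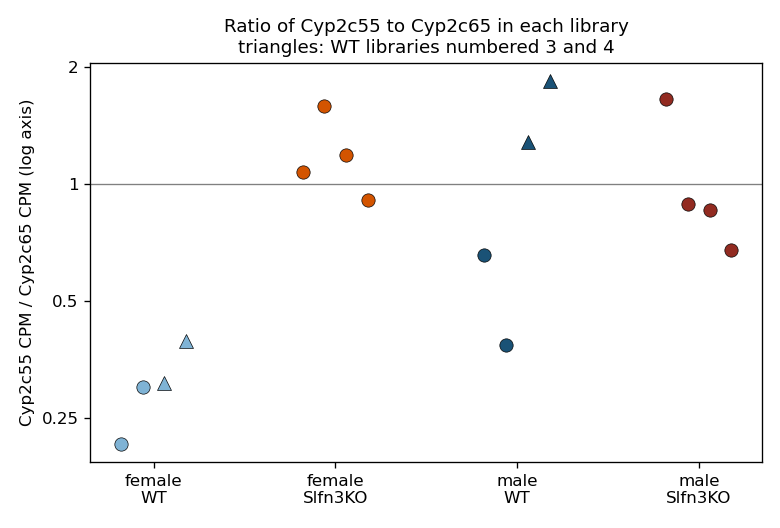
Cyp2c55 CPM divided by Cyp2c65 CPM (vertical axis, log scale) in each library by group. The 8 Slfn3KO libraries lie between 0.675 and 1.66, the 4 female WT libraries between 0.215 and 0.396 and the male WT libraries between 0.386 and 1.84, and libraries 3 and 4 of either WT group go against their labelled sex.

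Regulators of these genes differed in how far they followed Slc2a2. PXR (Nr1i2) was even, between 112 and 155 CPM in all 16 libraries, with a slope on Slc2a2 of 0.04 (adjusted p = 0.0287). CAR (Nr1i3) went from 3.30 to 47.3 CPM with a slope of 0.465 (SE 0.04, adjusted p = 1.22e-05). The aryl hydrocarbon receptor gene Ahr lay between 8.81 and 17.8 CPM with a slope of 0.00 (0.00352), and its partner Arnt between 50.9 and 69.7 CPM. Of 16 regulators tested, 7 had positive and 1, the bile acid receptor Nr1h4 (FXR) at -0.18, had a negative slope past the adjusted threshold, against 15.8% of all genes positive and 14.9% negative. HNF4α (Hnf4a) lay between 911 and 1431 CPM and did not pass (slope 0.03, adjusted p = 0.166). In the pooled comparison of genotypes 0 of 16 regulators were called, and the median log2 difference was -0.03.

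Of 12 electron donors and haem enzymes, 7 had positive slopes past the threshold and none a negative one, against 15.8% and 14.9% of all genes. Cytochrome b5 (Cyb5a) had 0.15 (adjusted p = 0.000224), P450 reductase (Por) 0.10 (adjusted p = 0.00732) and cytochrome b5 reductase 3 (Cyb5r3) 0.30 (adjusted p = 2.51e-09). Cyb5r3 was also 1 of the 2 genes of the whole table called between genotypes at equal Slc2a2, at 0.41 (SE 0.06, adjusted p = 0.0412), and is named here after its values were seen. In the pooled comparison 0 of 12 were called. Urod, a haem synthesis enzyme, had the smallest p there at 0.24 (unadjusted p = 0.0473).

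Other targets of the same receptors were mixed. Of 20 PXR and CAR targets outside the P450 family, 7 had positive slopes and 1 a negative slope past the threshold, against 15.8% and 14.9% of all genes, and 0 were called between genotypes, where Ugt2b35 had the smallest p (0.44, unadjusted p = 0.0363). Of 6 aryl hydrocarbon receptor targets tested, among them Cyp1b1, itself a P450 gene, 2 had positive slopes past the threshold, against 15.8% of all genes. These were Tiparp (0.08, adjusted p = 0.00820) and Nfe2l2 (0.15, adjusted p = 0.000285) by edgeR. Ahrr (-0.02), Nqo1 (-0.01) and Cyp1b1 (-0.34, adjusted p = 0.0619) did not pass. In the pooled comparison Tiparp was at -0.26, Nqo1 at 0.10, Ahrr at 0.14 and Cyp1b1 at -0.67, and none of the 6 was called. Of 16 arachidonic acid enzymes outside the family, 5 had positive and 4 negative slopes past the threshold, against 15.8% and 14.9% of all genes. Alox5 (0.74, unadjusted p = 0.00345) and Pla2g2a (0.99, unadjusted p = 0.0270) had the smallest p-values between genotypes by edgeR. Among 8 retinoid and sterol partners 3 slopes were positive past the threshold, against 15.8% of all genes. Dhrs9 had -2.07 between genotypes (unadjusted p = 0.0415 by edgeR).

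Enterocyte genes showed how far the slope extends beyond P450 enzymes. Of 10 enterocyte markers 8 had positive slopes past the threshold, and of the 31 other P450 genes tested 11 were positive and 4 negative. Of 8 further genes of the proximal small intestine 6 were positive and 2 negative, and of 9 distal genes 1 was positive and 1 negative. All of these counts stand beside 15.8% of all genes positive and 14.9% negative. Position along the bowel and enterocyte content cannot be told apart by this slope. The median slope was 0.15 for the enterocyte markers and 0.05 for the other P450 genes, beside 0.21 for the 10 genes described here. In the pooled comparison 0 of 31 other P450 genes were called, and Cyp4f18, a leukotriene hydroxylase of immune cells, had the smallest p at -1.70 (unadjusted p = 0.0163).

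Patterns over the 16 libraries were compared by Spearman correlation of log2 CPM, as a description in which all points share the same libraries and positions. The 45 pairs among the 10 genes had rho between 0.118 and 0.944, with a median of 0.718, and the 28 pairs without Cyp2c55 and Cyp1a1 lay between 0.635 and 0.944. The closest pair was Cyp2c65 and Cyp2c66 at 0.944, whose sequences are shared in part, and the most distant was Cyp2c55 and Cyp4f14 at 0.118. Outside the 10 genes, the gene most like Cyp2c55 was the carboxylesterase Ces2a (0.874) and the gene most like Cyp2c65 was Cyb5a (0.962). Cyp4f14 was nearest to the peroxiredoxin Prdx5 (0.994), Cyp3a13 to Enpp3 (0.962) and Cyp2d26 to the peroxisomal enzyme Hsd17b4 (0.953). Cyp2b10 was nearest to Oplah (0.947), Cyp2c66 to Sptssa (0.924), Cyp3a11 to the water channel Aqp1 (0.921), Cyp3a25 to Lingo4 (0.897) and Cyp1a1 to Adgrd1 (0.870).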

How the data were processed

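Ileum mucosa RNA of 16 mice was sequenced from stranded libraries as single 50-base reads. The authors trimmed reads with cutadapt, aligned them to mm10 with STAR and deposited raw counts per gene. The header of the table names featureCounts with reverse strand, and the methods name HTSeq. The labels and methods also differ on age, and the labels were used. Counts were fitted with edgeR 4.0.16 in R 4.3.3 (TMM scaling, filterByExpr, robust quasi-likelihood test, two-sided, Benjamini-Hochberg adjustment over all genes tested, threshold 0.05), with DESeq2 1.42.0 as an alternative. CPM are TMM-scaled. Labelled sex was a covariate in pooled fits, and the Slc2a2 fits added log2 Slc2a2 CPM with a prior count of 2. Scripts were tested on simulated counts. Named genes were the 10 enzymes, Slfn3, Slc2a2, 12 fixed regulators, partners and targets, and, by list, those with the smallest pooled p. The enzymes and lists were chosen with earlier results of these data known. Ratios and within-genotype slopes were added after the data were seen. Replicate numbers were compared between genotypes. The correlations ran from 0.138 to 0.518 in males and from -0.362 to 0.143 in females, with no test. Whether the numbers mark pairs is not recorded, and the main fits held no term for them. Litters are not recorded. Promoters and shared 50-base stretches came from RefSeq and GENCODE sequence of GRCm38.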

Additional observations from a re-analysis of the deposited data

Results flagged for a closer look

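Single libraries stood far from the other 3 of their group in 8 of 44 groups of 4, by the gap to the nearest library over the range of the group. Chance meets this criterion in about 1 in 20 groups of independent normal values. These genes are correlated, and all 8 came from male WT library 4 or female Slfn3KO library 3, so no excess is drawn from the count. Male WT library 4 was highest for Cyp2c55 at 232.6 CPM (others 31.19 to 53.47), for Cyp3a11 at 536.6 CPM (others 33.95 to 83.96) and for Cyp2d26 at 275.7 CPM (others 54.09 to 91.61). Female Slfn3KO library 3 was highest for Cyp3a11 at 78.52 CPM (others 9.50 to 17.56), for Cyp2d26 at 93.89 CPM (others 30.26 to 38.9) and for Cyp2b10 at 2.641 CPM (others 0.0802 to 0.2861). In that library Cyp1a1 was at 0.3883 CPM while the other 3 were at 0, and Slc2a2 was at 4.31 CPM while the other 3 lay between 0.5158 and 1.042. Male WT library 4 is among the 4 whose sex transcripts went against the label.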

How the results depend on the processing

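Of 1372 values of single enzymes under alternatives, 1271 kept their direction and side of the threshold, 25 passed it newly, 16 lost it and 60 changed sign, none of which was called. The number of the 10 enzymes called changed as follows, and the cause was not tested. At an unadjusted p by edgeR it was 1 in the pooled comparison (11.9% of all genes), 2 in females (17.1%) and 1 for the interaction (11.1%). It was 9 between Slfn3KO sexes, all lower (11.3% of all genes lower), and 4 at equal Slc2a2, all higher (5.80% higher). DESeq2 gave 1 in females (4.70% of all genes), 7 between Slfn3KO sexes, all lower (6.55% lower), and 2 at equal Slc2a2 (3.41%). Without WT libraries 3 and 4 the interaction had 1 (2.46% of all genes). Slopes had 0 with Fabp6 (0.810% of all genes), 0 within Slfn3KO (0.184%) and 5 within WT mice (10.5%). With each mouse left out in turn, 0 to 6 were called between Slfn3KO sexes, 7 to 8 for the slope and 0 to 2 at equal Slc2a2. The 6 without female Slfn3KO library 3 stood beside 5.44% of all genes, and the 2 without male Slfn3KO library 4 beside 5.16%. The main slope fit called 30.7% of all genes. The slope of Cyp3a25 was not called without female WT 1 (adjusted p = 0.127), male WT 3 (0.0872) or the 2 libraries farthest in Slc2a2 (0.0698), all by edgeR.

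Over all genes, DESeq2 called 64 in the pooled comparison, 16 in males, 635 in females, 31 for the interaction, 1569 between Slfn3KO sexes and 496 at equal Slc2a2, where edgeR called 0, 0, 0, 0, 7 and 2. Between Slfn3KO sexes 25 genes were called with no filter and 0 with at least 10 counts in every library. The interaction had 371 without WT libraries 3 and 4, and the epithelium covariate gave 1 in females. Slopes gave 120 with Fabp6, 26 within Slfn3KO and 1483 within WT mice, against 4549. At equal Slc2a2, 1 gene was called with RLE factors or a 1.5-fold minimum, and 0 without WT libraries 3 and 4, without the sex covariate, with Gata4 or Fabp6, or without the 2 libraries farthest in Slc2a2.

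Values that changed sign are log2 differences or slopes. Without WT libraries 3 and 4, the pooled values were -0.20 for Cyp2c65 and 0.040 for Cyp3a11. Male values were then -0.025 for Cyp3a13, 2.37 for Cyp1a1 and -0.058 for Cyp4f14, the female value of Cyp3a25 was -0.17 and the interaction of Cyp2c55 -0.081. At equal Slc2a2 Cyp1a1 was then 1.90 and Cyp4f14 0.097. The replicate block, which paired mice by number, changed no call of the 10 enzymes, and turned Cyp3a11 to 0.44 in the pooled and Cyp1a1 to 0.40 in the male comparison. With no sex covariate pooled Cyp3a11 was 0.21 and Cyp2b10 0.058. With the epithelium covariate, pooled Cyp3a11 was 0.53 and Cyp3a13 0.0042, male Cyp3a13 -0.037 and Cyp4f14 -0.044, and female Cyp2c65 0.38, Cyp2c66 0.59, Cyp3a11 0.55 and Cyp3a13 0.033. With Fabp6, slopes were -0.14 for Cyp2c65, -0.16 for Cyp2c66, -0.27 for Cyp3a13, -0.093 for Cyp3a25, -0.15 for Cyp2b10 and -0.25 for Cyp4f14, and at equal Fabp6 the genotypes differed by -0.040 for Cyp3a11, -0.096 for Cyp3a13, -1.16 for Cyp2b10 and -0.48 for Cyp2d26. With Gata4 the last 2 were -0.18 and -0.11. Within WT mice the slope of Cyp1a1 was -0.090, and without the 2 libraries farthest in Slc2a2 Cyp4f14 was 0.063 at equal Slc2a2. With each mouse left out in turn, these values took both signs. In the pooled comparison Cyp3a11 ran from -0.46 to 0.65 and Cyp3a13 from -0.21 to 0.057. In males Cyp3a13 ran from -0.015 to 0.29, Cyp2b10 from -0.38 to 1.70, Cyp1a1 from -0.55 to 1.31 and Cyp4f14 from -0.039 to 0.23. In females Cyp2c65 ran from -0.51 to 0.18, Cyp2c66 from -1.11 to 0.50, Cyp3a11 from -1.53 to 0.071 and Cyp3a25 from -0.19 to 0.35. At equal Slc2a2 Cyp2d26 ran from -0.013 to 0.41 and Cyp4f14 from -0.064 to 0.062.

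Depth limits Cyp1a1, Cyp2b10 and Cyp2c66 most, whose lowest libraries lie at or under 3 counts.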

Other observations

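Outside the 10 enzymes, 26 further P450 genes were tested between female and male Slfn3KO mice. At an unadjusted p under 0.05, 12 of them were lower and 2 higher in females, against 11.3% and 13.7% of all genes, and none passed the adjusted threshold in edgeR. Between genotypes in females, 6 of 28 were lower and 1 higher in Slfn3KO mice at the unadjusted threshold, against 8.56% and 8.57% of all genes, and again none passed after adjustment. Dhrs9, a retinol dehydrogenase, had a fitted log2 difference of -4.04 between genotypes in males (SE 0.68, unadjusted p = 0.000284, adjusted p = 0.802) and -0.31 in females (adjusted p = 0.883), with an interaction of 3.71 (adjusted p = 0.441).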
